A study of Homo sapiens with 6 samples.

Results

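The genes described here build and run the protein folding machinery of the endoplasmic reticulum (ER): chaperones, disulfide isomerases, the ER-associated degradation (ERAD) apparatus, the translocon, and the sensors ATF6, IRE1 and PERK with the factors they control. They were chosen as a list of 44 gene symbols, with earlier results of these data known. Of these symbols, 43 were measured among the 18417 genes with a probe set of their own. PDIA3 was not measured here, since its probe sets also carry the symbol of its pseudogene PDIA3P1. The samples came from MDA-MB-231, a human cell line established from a triple negative breast cancer. The 3 control samples are labelled as such, and whether they received vehicle is not stated. The 3 EC-70124 treated samples received the multi-kinase inhibitor at 500 nM during 24 h, so that 1 cell line, 1 dose and 1 time stand for the drug. Each sample was hybridised to 1 Affymetrix Human Gene ST array, and the values are model-based expression indices (MBEI), that is, intensities on a linear scale.

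Secreted and membrane proteins enter the ER through the translocon, fold with the help of BiP (HSPA5) and other chaperones, form disulfide bonds, and leave in COPII vesicles or, when misfolded, are returned to the cytosol by ERAD. When unfolded proteins accumulate, 3 sensors respond. ATF6 is cut in the Golgi by the proteases MBTPS1 and MBTPS2 and becomes a transcription factor, IRE1 (ERN1) splices the XBP1 mRNA so that it encodes another, and PERK (EIF2AK3) phosphorylates eIF2alpha, which favours translation of ATF4. ATF6 and XBP1 raise transcription of chaperone, ERAD and translocon genes, whereas ATF4 and CHOP (DDIT3) raise genes of amino acid supply and of the stress response.

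Treatment with EC-70124 lowered a large share of these genes. Of the 43 measured members, 22 were down-regulated, 4 were up-regulated and 17 did not pass an adjusted p under 0.05 (limma, Benjamini-Hochberg over all genes). Over all genes tested, 14.8% were down-regulated and 19.7% were up-regulated. The median log2 fold change (EC-70124 minus control) was -0.24 over the members and -0.0045 over all genes tested. The changes were moderate: 6 of the 22 falls (WFS1, PDIA5, CREB3L2, ERO1B, SEC24D and PDIA4) and 2 of the 4 rises (XBP1 and CREB3) reached 1.5-fold, against 3.24% of all genes for falls and 6.43% for rises. EDEM3, at a fold of 0.667, lay just outside that size. The control and treated intensities did not overlap in 29 of the 43 members, among them the 26 that passed, and in 47.6% of all genes. In 12 of the 22 members that fell, EC-70124 replicate 3 was the treated array nearest to the controls, and without it 26 members were down-regulated and 5 up-regulated. Calls over all genes grew as well without that array, from 2722 to 2947 down-regulated and from 3631 to 3888 up-regulated.

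The counts were also made without the 30% of genes with the lowest mean. There, 23 members were down-regulated and 5 up-regulated, beside 21% and 26.7% of the 12892 genes tested. The share of calls that are rises depends on the scaling for the whole array, with 57.2% in the values as deposited and 46.9% after quantile normalization. Among the members 24 fell and 3 rose after quantile normalization, and over all genes tested 3527 fell and 3112 rose. The balance of the members toward falls was thus present under both scalings, while all genes tipped toward falls after quantile normalization. In RNA from whole cultures, a lower intensity can come from fewer cells of a kind or from less RNA per cell, and these cannot be told apart.

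**Figure D1:**
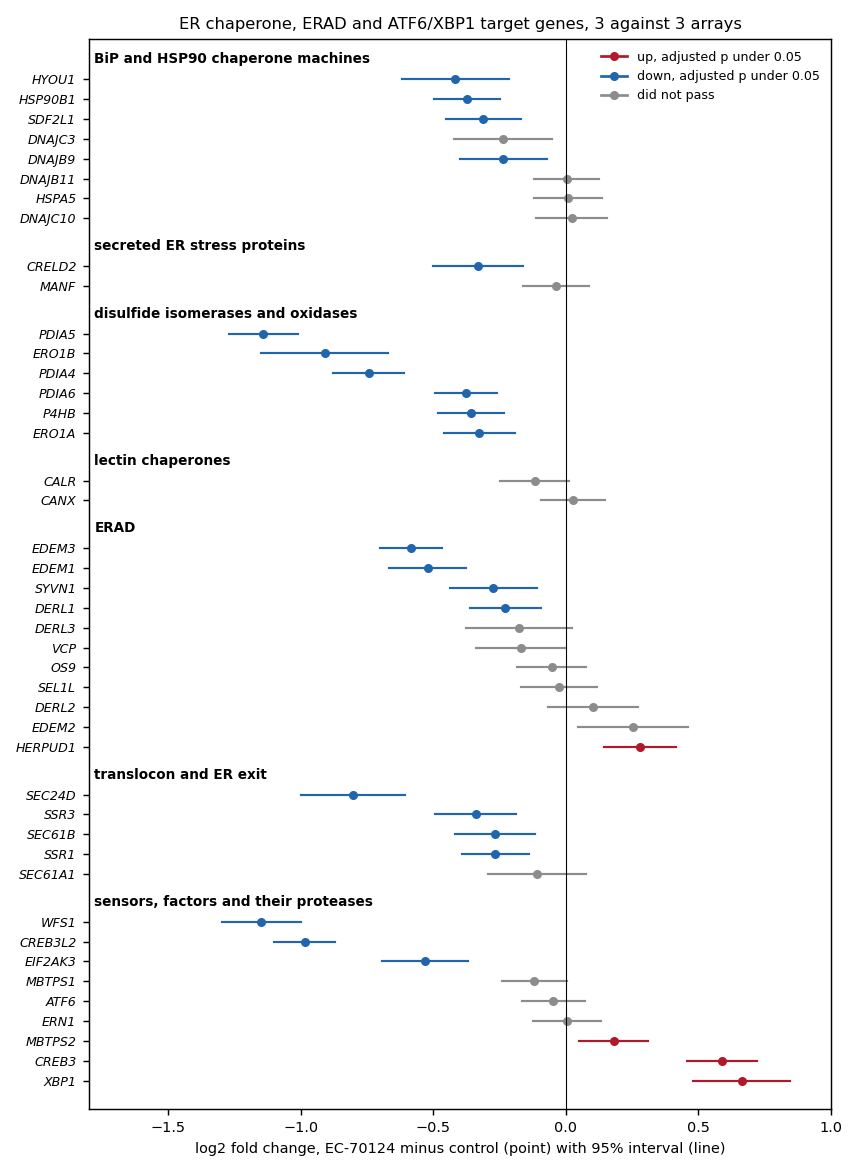
Log2 fold change (EC-70124 minus control, x axis) of the 43 measured members, grouped by role (y axis). Points are limma estimates from 3 against 3 arrays, lines are 95% intervals, and colour gives the call at an adjusted p under 0.05. All 6 disulfide isomerases and oxidases lie left of 0, from -1.14 for PDIA5 to -0.33 for ERO1A, whereas HSPA5, DNAJB11 and DNAJC10 lie at 0 and XBP1 and CREB3 lie farthest right.

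Promoters were read for 3 letter patterns of the ER stress response. The ER stress element ERSE (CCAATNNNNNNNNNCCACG, bound by NF-Y and by ATF6 or XBP1), ERSE-II (ATTGGNCCACG) and the UPRE core (TGACGTGG) were searched on both strands. CCACG is shared by the first 2, while CGTGG, its reverse complement, lies within the UPRE core. RefSeq promoters (GRCh38.p14, 250 bases before to 50 after the gene start) were found for 40 of the 44 members. ERSE was held by 8 of the 40, against 0.0916% of 27305 genes with a promoter. ERSE-II was held by 3 (0.0696% of all genes) and the UPRE core by 4 (0.927% of all genes). ERSE was defined on promoters of such chaperone genes, so its frequency here describes how the list was drawn up. Of the 8 members with ERSE, 4 fell (HSP90B1, CRELD2, PDIA6 and ERO1B), 1 rose (XBP1) and 3 did not pass (HSPA5, CALR and CANX). Of the 3 with ERSE-II, HYOU1 and SDF2L1 fell and HERPUD1 rose. DNAJC10 and VCP, which hold only the UPRE core, did not pass, and SSR3, the fourth gene with it beside HYOU1, fell. A match is no proof of binding, and genes with the same letters thus went down, up or neither.

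Stretches upstream of the gene start are shown for 9 of these members, to set the same element side by side in genes that did not pass (HSPA5, CALR), that fell (HSP90B1, CRELD2, ERO1B, HYOU1, SDF2L1) and that rose (XBP1, HERPUD1). Each is written 5′ to 3′ on the strand of the gene, and capitals mark the fixed letters of ERSE, ERSE-II or the UPRE core in either orientation.
HSPA5 (chr9:125241371-125241429, minus strand): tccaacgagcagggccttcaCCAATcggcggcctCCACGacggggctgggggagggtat
CALR (chr19:12938364-12938422, plus strand): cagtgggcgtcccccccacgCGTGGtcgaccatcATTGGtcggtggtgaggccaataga
HSP90B1 (chr12:103930196-103930359, plus strand): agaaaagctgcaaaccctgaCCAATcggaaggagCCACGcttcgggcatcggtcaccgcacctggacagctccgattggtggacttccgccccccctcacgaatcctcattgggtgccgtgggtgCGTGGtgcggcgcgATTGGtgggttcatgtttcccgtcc
CRELD2 (chr22:49918534-49918592, plus strand): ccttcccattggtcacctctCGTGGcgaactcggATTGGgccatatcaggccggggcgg
ERO1B (chr1:236282163-236282208, minus strand): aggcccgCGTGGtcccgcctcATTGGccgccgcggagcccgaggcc
HYOU1 (chr11:119057254-119057413, minus strand): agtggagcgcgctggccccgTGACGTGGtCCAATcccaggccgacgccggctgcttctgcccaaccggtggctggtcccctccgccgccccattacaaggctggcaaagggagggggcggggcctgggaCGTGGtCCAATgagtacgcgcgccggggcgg
SDF2L1 (chr22:21642094-21642144, plus strand): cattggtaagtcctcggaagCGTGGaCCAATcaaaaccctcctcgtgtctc
XBP1 (chr22:28800583-28800641, minus strand): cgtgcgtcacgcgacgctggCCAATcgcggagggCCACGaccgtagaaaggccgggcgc
HERPUD1 (chr16:56932005-56932055, plus strand): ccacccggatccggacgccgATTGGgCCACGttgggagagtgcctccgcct
In HSPA5 the element ended 48 bases before the start and in XBP1 34 bases before it. HSP90B1 held 2 copies in opposite orientation, HYOU1 held 2 copies of ERSE-II, and in HYOU1 the UPRE core overlaps the distal ERSE-II.

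**Figure D2:**
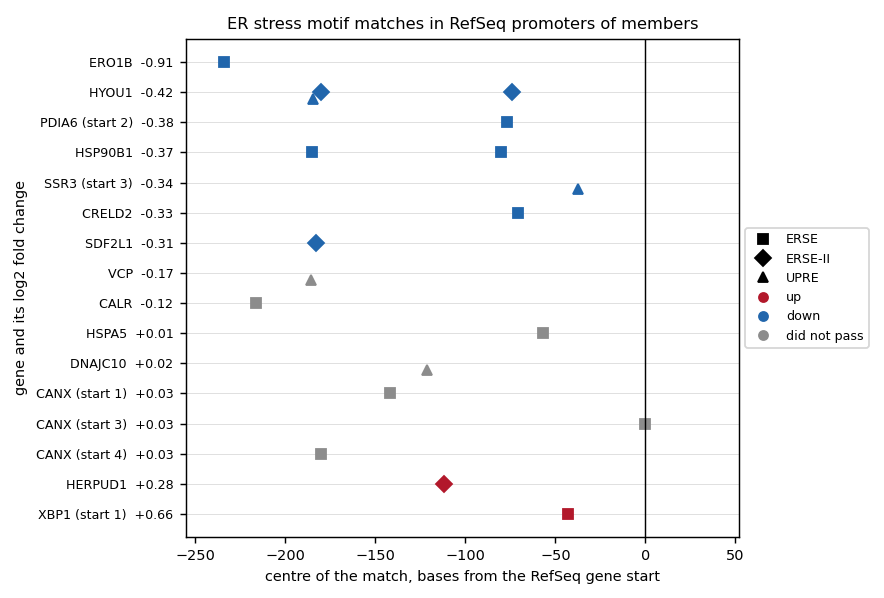
Position of each ERSE, ERSE-II and UPRE match (x axis, bases from the RefSeq gene start) in members that hold one (y axis, ordered by log2 fold change, with the start used where a gene has several). Colour gives the call, and members with ERSE run from ERO1B at -0.91 through HSPA5 at 0.01 to XBP1 at 0.66.

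Among the chaperone machines of the ER lumen, the central chaperone did not pass while its partners in part fell. HSPA5, which encodes BiP, had intensities of 10104, 10563 and 10256 in control replicates 1 to 3 and of 10275, 10030 and 10804 in EC-70124 replicates 1 to 3. The groups overlapped, with a log2 fold change of 0.01 and a 95% interval of -0.12 to 0.14. DNAJB11 and DNAJC10, cochaperones of BiP, gave 0.00 (-0.12 to 0.13) and 0.02 (-0.11 to 0.16). HSP90B1, the HSP90 of the ER (GRP94), had intensities of 14273, 14411 and 14882 in controls and of 11276, 11513 and 10833 in treated samples. It fell by 0.37 on the log2 scale (standard error 0.05, adjusted p = 0.000974 from limma). HYOU1, a large HSP70-like protein that exchanges nucleotide on BiP, went from 6330, 6633 and 6516 to 4539, 4540 and 5579, and EC-70124 replicate 3 lay nearer to the controls than the other treated arrays (log2 fold change -0.42, standard error 0.09, adjusted p = 0.00636 from limma). SDF2L1, a partner of the BiP cycle, fell by 0.31. DNAJB9 (ERdj4) fell by 0.24, with an adjusted p of 0.0340 from limma that was 0.0532 to 0.117 without control replicate 1, 2 or 3 or without EC-70124 replicate 1 or 2. DNAJC3 (p58IPK), with -0.24 as well, missed the threshold (adjusted p = 0.0509 from limma), although its treated values of 1312, 1476 and 1621 all lay under the lowest control of 1703. It passed without EC-70124 replicate 3 (adjusted p = 0.00889 from limma), and also after quantile normalization, cyclic loess, an offset, an intensity trend or without the dimmest genes.

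The small secreted proteins of this response differed in their values. CRELD2 went from 748, 752 and 798 in controls to 575, 584 and 672 in treated samples, a log2 fold change of -0.33 (limma, adjusted p = 0.00878). MANF had overlapping groups and a log2 fold change of -0.04 (-0.16 to 0.09).

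The enzymes that make disulfide bonds formed the role group in which every measured member fell (6 of 6). PDIA5 fell most, from 3279, 3445 and 3182 in controls to 1478, 1542 and 1469 in treated samples, a fold of 0.453 (log2 fold change -1.14, standard error 0.06, adjusted p = 7.5e-06 from limma). ERO1B, an oxidase that passes electrons from the isomerases to oxygen, went from 804, 887 and 866 to 464, 517 and 388 (log2 fold change -0.91, standard error 0.10, adjusted p = 0.000282 from limma). PDIA4 (ERp72) went from 7458, 7639 and 7206 to 4627, 4444 and 4248, a fold of 0.597. These 3 enzymes lay well clear of the others in the group. PDIA6, P4HB (the protein disulfide isomerase that is also a subunit of prolyl 4-hydroxylase) and ERO1A fell by 0.38, 0.36 and 0.33, with 95% intervals that did not reach those of PDIA4 and PDIA5. P4HB was the member with a second probe set carrying only its own symbol, which gave -0.30 (adjusted p = 0.00280 over all single-symbol probe sets, from limma). The paralogs ERO1A and ERO1B had intervals of -0.46 to -0.19 and -1.15 to -0.67.

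The lectin chaperones, which hold glycoproteins while they fold, did not pass. CANX (calnexin) had intensities of 14243, 14822 and 14533 in controls and of 14967, 14406 and 15009 in treated samples. CALR (calreticulin) had a log2 fold change of -0.12 (limma, adjusted p = 0.157), with treated values of 9520, 9615 and 10352 against controls of 10504 to 10729, and it passed without EC-70124 replicate 3 (-0.15, adjusted p = 0.0438 from limma).

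**Figure D3:**
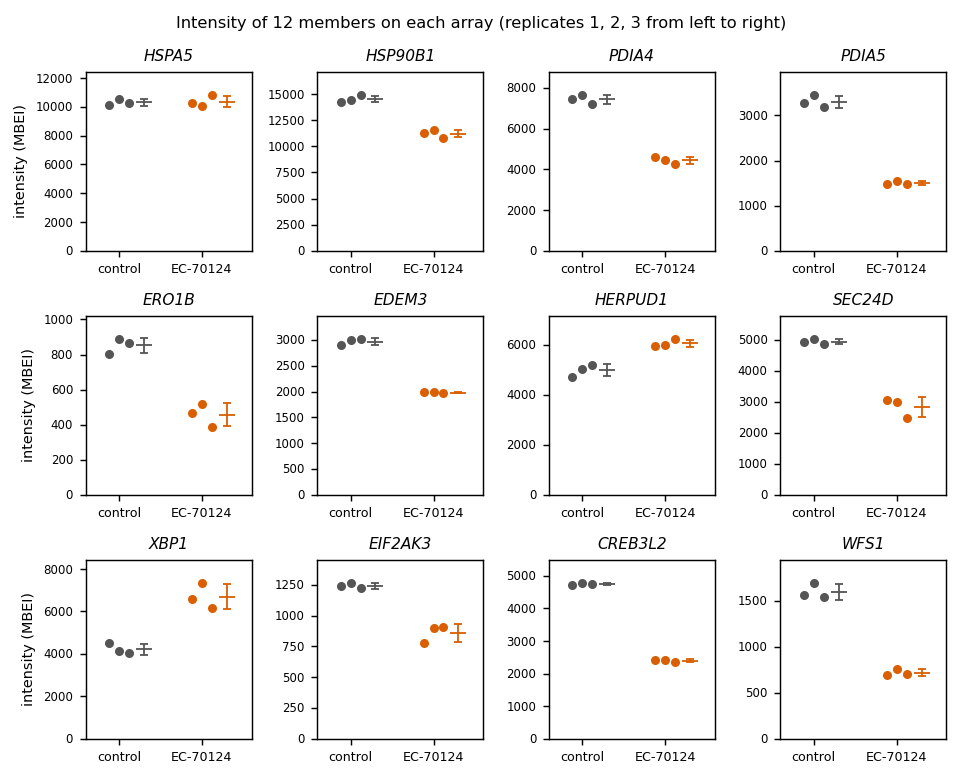
Intensity (MBEI, y axis from 0) of 12 members on each of the 6 arrays, gray for control and orange for EC-70124, with the mean and SD (n = 3) beside the points. HSPA5 has overlapping groups between 10030 and 10804, HERPUD1 and XBP1 are higher in the treated samples, and the other 9 genes are lower.

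In ERAD, 4 of 11 members fell, 1 rose and 6 did not pass. The mannosidase-like proteins that mark glycoproteins for disposal did not move together. EDEM3 went from 2893, 2998 and 3012 to 1993, 1981 and 1964 (log2 fold change -0.58, standard error 0.05, adjusted p = 7.7e-05 from limma) and EDEM1 from 3162, 3248 and 3104 to 2240, 2333 and 2061 (-0.52, standard error 0.06). EDEM2 had 1568, 1628 and 1720 in controls and 2047, 2128 and 1707 in treated samples, so that the groups overlapped only through EC-70124 replicate 3. Its log2 fold change of 0.25 (limma, adjusted p = 0.0608) became 0.35 without that array (adjusted p = 0.00391 from limma), and its 95% interval of 0.05 to 0.46 was apart from those of EDEM1 (-0.67 to -0.38) and EDEM3 (-0.70 to -0.47). OS9, a lectin of the same pathway, had -0.05.

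HERPUD1, a scaffold of the ubiquitin ligase complex that is also a known target of ATF4, was the ERAD member that rose, from 4719, 5035 and 5207 to 5958, 5989 and 6220 (log2 fold change 0.28, standard error 0.06, adjusted p = 0.00656 from limma). Whether ATF4 had a part in this rise was not tested. SYVN1, the ubiquitin ligase itself (HRD1), fell by 0.27 (adjusted p = 0.0180 from limma), a call lost without control replicate 2, EC-70124 replicate 1 or EC-70124 replicate 2 (0.0704, 0.0576 and 0.0528). Its partner SEL1L gave -0.03 (-0.17 to 0.12). Among the derlins, which form the exit channel with SYVN1, DERL1 fell by 0.23 (adjusted p = 0.0163 from limma, and 0.0548 to 0.0592 without control replicate 2 or 3 or EC-70124 replicate 1), DERL2 had 0.10 and DERL3 had -0.18, and neither DERL2 nor DERL3 passed. VCP, the ATPase that pulls substrates into the cytosol, had treated values of 6167, 6261 and 7270, of which only that of EC-70124 replicate 3 lay inside the control range of 7178 to 7469. Without that array the value of VCP was -0.24 on the log2 scale (limma, adjusted p = 0.00861) in place of -0.17 (0.120).

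Of the genes for entry into and exit from the ER, 4 of 5 fell. SEC24D, a cargo-binding subunit of the COPII coat, went from 4941, 5021 and 4865 to 3057, 2995 and 2472 (log2 fold change -0.81, standard error 0.09, adjusted p = 0.000199 from limma). SSR3 and SSR1, subunits of the TRAP complex beside the translocon, fell by 0.34 and 0.27. SEC61B, a small subunit of the channel, fell by 0.27 (adjusted p = 0.0129 from limma, and 0.0562 without control replicate 1 and 0.0521 without EC-70124 replicate 2). SEC61A1, the channel itself, had treated values of 5848, 6190 and 7192, of which the last, in EC-70124 replicate 3, was above all controls (6848 to 6953). Its log2 fold change was -0.11 (adjusted p = 0.353 from limma), and -0.19 without that array (adjusted p = 0.0250 from limma).

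The group of sensors, transcription factors and their proteases, in which WFS1 was placed as well, had 3 falls and 3 rises. Of the 3 sensors, ATF6 (-0.05, interval -0.17 to 0.07) and ERN1 (0.00, interval -0.13 to 0.13) had overlapping groups, while EIF2AK3, which encodes PERK, went from 1238, 1264 and 1221 to 779, 898 and 906 (log2 fold change -0.53, standard error 0.07, adjusted p = 0.000645 from limma). XBP1 rose from 4509, 4126 and 4023 to 6578, 7332 and 6158, a fold of 1.58 (log2 fold change 0.66, standard error 0.08, adjusted p = 0.000383 from limma). Its probe set gives 1 value for spliced and unspliced XBP1 mRNA together, so that splicing by IRE1 was not measured.

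Among the membrane-bound relatives of ATF6, CREB3 (Luman) rose from 2967, 3187 and 3250 to 4731, 4758 and 4641 (log2 fold change 0.59, standard error 0.06, adjusted p = 0.000129 from limma). CREB3L2 (BBF2H7), which drives SEC23A and other secretory genes in cartilage, went the other way, from 4720, 4774 and 4741 to 2408, 2427 and 2351, a fold of 0.505 (log2 fold change -0.99, standard error 0.05, adjusted p = 8.05e-06 from limma). The proteases that release ATF6 and these relatives had small changes. MBTPS2 rose by 0.18 (adjusted p = 0.0409 from limma), a call lost without control replicate 1 or 2 or EC-70124 replicate 1 or 2 (0.109 to 0.145) and after quantile normalization or cyclic loess, and MBTPS1 had -0.12 (adjusted p = 0.124 from limma). A further probe set of MBTPS2 also carries the symbol YY2 and was not used. The groups of MBTPS1 did not overlap, and it passed as a fall after quantile normalization and cyclic loess (adjusted p = 0.0342 and 0.0486 from limma). WFS1, an ER membrane protein mutated in Wolfram syndrome, had the largest fall of the list, from 1556, 1688 and 1535 to 694, 762 and 700, a fold of 0.451 (log2 fold change -1.15, standard error 0.07, adjusted p = 1.2e-05 from limma).

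The other genes of the secretory pathway moved in both directions. Falls outnumbered rises among the further folding enzymes, the translocon genes and the COPII genes, as among the members, and equalled them among the further ERAD factors. The counts are to be read beside the 14.8% of all genes that fell and the 19.7% that rose. Of 31 measured further folding enzymes and cochaperones, 10 fell and 4 rose. The largest falls were those of FKBP14 (log2 fold change -0.66), CRELD1 (-0.63), FKBP7 (-0.63) and PPIC (-0.55), of which FKBP7, FKBP14 and PPIC are prolyl isomerases. The 4 that rose were TOR1A (0.41), TMX3 (0.30), DNAJC1 (0.27) and ERP29 (0.22). Of 31 further ERAD factors, 9 fell and 9 rose, with 1.05 for UBXN8 and 0.69 for DNAJB12, a membrane cochaperone, 0.68 for the ubiquitin ligase RNF185 and -0.58 for the lectin ERLEC1. Of 23 genes of the translocon, signal peptidase and signal recognition particle, 7 fell (3 to 4 without any single array other than EC-70124 replicate 3, and 8 without that array) and 3 rose. SEC11C, a catalytic subunit of the signal peptidase, had 1.02, SRP19 had 0.44, the channel paralog SEC61A2 had 0.35, and SRPRA, the receptor of the signal recognition particle, had -0.36.

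Of 21 COPII and ER exit genes, 9 fell and 1 rose (SEC31B, 0.29, adjusted p = 0.0497 from limma, with counts of 0 to 2 when single arrays were left out). KDELR3, which returns escaped ER proteins from the Golgi, went from 5736, 5812 and 6094 to 2465, 2671 and 2297 (log2 fold change -1.25, standard error 0.07, adjusted p = 1.0e-05 from limma). The cargo receptor LMAN1 had -0.52, SEC24A had -0.43 and SEC13 had -0.40. Of 10 other factors tied to the sensors, NFYC rose (0.40) and CREB3L1 (-0.42) and NFYA (-0.22) fell, that is 30% of the list, beside 34.5% of all genes called in either direction. Of 5 measured transcripts reported as substrates of IRE1-dependent decay, COL6A1 (-0.68) and CD59 (-0.20) fell and 3 did not pass. The call of CD59 was lost without control replicate 1 or 2 or EC-70124 replicate 2 (0.0546 to 0.0721, adjusted p from limma).

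The genes listed for the PERK and ATF4 arm moved otherwise in the same arrays. PERK activity and phosphorylation of eIF2alpha were not measured on these arrays, and whether PERK acted on these genes was not tested. Of 25 measured genes of that arm, 24 were up-regulated and 1, VLDLR (-0.90), was down-regulated, with a median log2 fold change of 1.11 beside -0.24 over the ER folding members. DDIT3 (CHOP) had intensities of 1020, 1193 and 942 in controls and of 5226, 4741 and 4827 in treated samples. CHAC1 and NUPR1 had log2 fold changes of 2.95 and 2.79, whereas no member of the ER folding list exceeded 0.66. STC2 had intensities of 106, 139 and 129 in controls and of 911, 891 and 886 in treated samples. Its log2 fold change of 2.86 was 2.44 with an offset of 50 and rests on low control values, for which background was not measured. The list of that arm was written with earlier results of these arrays known, and the difference between the lists was not tested.

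**Figure D4:**
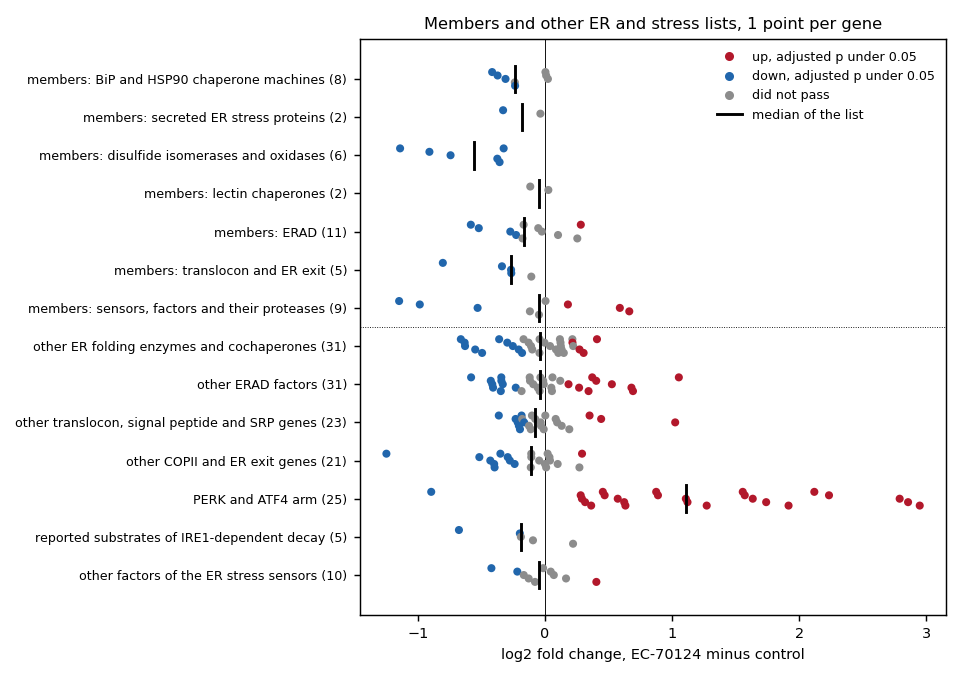
Log2 fold change (EC-70124 minus control, x axis) of each measured gene in 7 role groups of members (above the dotted line) and 7 other lists (below it), with the number of genes in parentheses. Points are genes, coloured by the call at an adjusted p under 0.05, and black bars are list medians, which lie at -0.56 for the disulfide isomerases and oxidases and at 1.11 for the PERK and ATF4 arm.

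Across the series, column medians were 437 to 444 in control arrays and 451 to 460.1 in treated arrays, and r of the log2 values across probe sets was 0.990 to 0.993 within groups and 0.979 to 0.984 between them. As markers of the cell line, vimentin (VIM) had intensities of 12837 to 13991, and ESR1, PGR and ERBB2, which this cell type lacks or holds at low level, had 183 to 234, 149 to 176 and 1442 to 1566. None of these 4 passed. Of the other 8 markers of the line, KRT18 (log2 fold change 0.77), KRT8 (0.20) and CDH1 (0.19) rose, and FN1 (-1.10), CD44 (-0.29) and AXL (-0.27) fell. Of all 12 markers, 25% rose and 25% fell, beside 19.7% and 14.8% of all genes. The markers had a median log2 fold change of -0.02. Whether these marker changes had a part in the changes of the ER genes was not tested. The rise of CDH1 rests on low intensities, 152 to 188 over the arrays and near those of ESR1 and PGR, with an adjusted p of 0.0490 from limma. The table holds no measure of background, so absence was not called. Of 7 leukocyte and endothelial markers, CD68 passed, with a fall of 0.33 and mean intensities of 9042.5 in controls and 7210 in treated samples. Means in controls and treated samples were 563 and 672 for ITGAM and 310 and 304 for CDH5. Control means of CD3E, PECAM1 and VWF were 212, 213 and 227. PTPRC was the dimmest, with intensities near 95.1 in controls and 96.5 in treated samples. CD68 is a lysosomal protein that epithelial cells also make.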

How the data were processed

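The authors deposited 1 model-based expression index per probe set and array, an intensity on a linear scale, made in dChip after rank invariant normalization (version and background correction: not given in the sources used here). For the present work a floor of 1 was set and log2 was taken. Gene symbols came from the platform annotation (19460 of 33252 probe sets with 1 symbol, 1754 with several and 12038 with none), and the probe set with the highest mean over the 6 arrays represented each gene. All 43 measured symbols equal the current ones by Entrez identifier. Treated and control samples, called independent in the methods, were compared in R 4.3.3 with limma 3.58.1 (lmFit, eBayes), 2-sided, with Benjamini-Hochberg adjustment over 18417 genes. Precision is limited by the number of arrays (the log2 fold changes had a median standard error of 0.07), and with 3 against 3 samples an exact permutation test gives at least 0.1. The members, role groups and lists were chosen with earlier results of these data known. Named are all measured members and, of each other list, up to 4 genes that passed with the largest change and no overlap of the groups. VLDLR, SEC31B, TOR1A, TMX3, DNAJC1, ERP29 and the markers were added outside this rule, after their values were seen. In simulated data (18417 genes, 200 changed), 80% of genes changed 1.5-fold and 93% of those changed 2-fold were recovered, with 10 unchanged genes called. That setting differs from the real data, where 34.5% of genes were called, and changes under 1.5-fold were not simulated. The recovered shares therefore do not give the recovery in the real comparison. Promoters came from RefSeq; PDIA3, DERL1, DERL3 and SEC24D had no entry. Planned C-terminal retrieval letters were not analysed here. Alternatives covered normalization, dim genes, an offset of 50, probe sets, variance model, a t-test per gene, a fold of 1.5, the replicate number as a block and leaving out each array.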

Additional observations from a re-analysis of the deposited data

How the results depend on the processing

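No member changed direction together with a call under the 15 alternatives. Of 645 values of single members, 577 kept their side of the threshold, 51 lost it and 17 gained it. The paper names a t-test for these arrays as the scoring metric of its gene set analysis. A t-test per gene was run here, with unequal variances and adjusted over all genes. With it, 11 members were down-regulated and 2 up-regulated, of 1280 and 1962 (3242 in all) over all genes, and 25 genes of the other lists were down-regulated (40 with limma). The falls of ERO1B, SEC24D, EIF2AK3, HYOU1, SDF2L1, CRELD2, SSR3, DNAJB9, SYVN1, DERL1 and SEC61B lost their calls under the t-test. So did the rises of HERPUD1 and MBTPS2. With a fold of at least 1.5, 6 members were down-regulated and 2 up-regulated, of 596 and 1184 (1780 in all), and in the other lists 6 fell and 21 rose (42 without that fold). The fold threshold can only remove calls, and the cause of the lower counts with the t-test was not tested. When single arrays were left out, the members down-regulated ranged from 19 to 26 and those up-regulated from 3 to 5. Over all genes the same fits gave 2133 to 2947 down-regulated and 2991 to 3888 up-regulated. The median log2 fold change of all genes, -0.0045, was -0.0453 after quantile normalization, -0.0222 after cyclic loess and 0.0077 without the dimmest genes. That of the members ranged from -0.28 (cyclic loess, and without EC-70124 replicate 3) to -0.19 (without EC-70124 replicate 1).

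With the replicate number as a block, 22 members were down-regulated and 3 up-regulated, of 6183 genes called, and MBTPS2 lost its call. Deviations of same-numbered samples correlated with 0.13, -0.02 and 0.14 for replicates 1, 2 and 3, and EC-70124 replicates 1 and 2 correlated best with another number (0.15 with control replicate 2 and 0.05 with control replicate 3), so the numbers were not taken as pairs. The falls of DNAJB9, SYVN1, DERL1 and SEC61B and the rise of MBTPS2 were lost when certain single arrays were left out, and the cause was not tested.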
